A study of Mus musculus with 16 samples.

Results

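The unfolded protein and amino acid stress response was followed in whole ovary and whole kidney of mice given PT-2385 or its vehicle. It was read through 35 genes, listed by symbol and matched by gene identifier to the count tables. All 35 were found among the 55359 gene models of the tables, and all 35 had enough counts to be tested in both organs. By role they comprised 3 stress sensors of the endoplasmic reticulum (ER), 5 transcription factors, 13 ER folding genes, 4 genes of ER-associated degradation, 9 amino acid genes driven by ATF4 and 1 phosphatase of the feedback. The 13 folding and 4 degradation genes, known targets of ATF6 and XBP1, formed the chaperone arm (17 genes), which was set against the 9 genes of the amino acid arm.

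All mice were wild-type CBAF1 females, 21 days old. The PT-2385 groups received 7.5 mg/kg of PT-2385, a small molecule that blocks the hypoxia-inducible factor HIF-2α, by intraperitoneal injection every 12 h for 4 days, and the vehicle groups received 5% DMSO in saline on the same schedule. Every group, vehicle included, was also given 5 IU PMSG, a gonadotrophin that makes follicles grow, for 48 h and then 5 IU hCG, a substitute for LH that triggers ovulation, and tissue was collected 13 h after the hCG. The 4 groups were ovary with PT-2385, ovary with vehicle, kidney with PT-2385 and kidney with vehicle, of 4 libraries each. Whether each library is from its own animal is not said in the labels, and p-values therefore measure the spread between these libraries. These were bulk samples, so fewer cells of a type and less RNA per cell cannot be told apart.

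The ER is where secreted and membrane proteins fold. When unfolded proteins build up there, the sensors IRE1 (Ern1), PERK (Eif2ak3) and ATF6 act: IRE1 splices Xbp1 mRNA, ATF6 is cleaved into a transcription factor, and PERK phosphorylates eIF2α, which slows translation but lets Atf4 mRNA be translated. ATF6 and XBP1 raise chaperones and degradation factors, while ATF4, which also answers to amino acid shortage through another kinase, raises genes of amino acid synthesis and transport and, through CHOP (Ddit3), genes tied to cell death. Splicing of Xbp1, cleavage of ATF6 and phosphorylation of eIF2α are not visible in counts per gene.

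The smallest library held 12.7 M assigned read pairs and the deepest 43.3 M (1 M is 1000000). The organs carried their own marker genes: 7 proximal tubule markers summed to between 18896 and 20989 counts per 1000000 counts (CPM) in the PT-2385 kidneys and between 20260 and 22109 CPM in the vehicle kidneys, but to at most 38.7 CPM in the PT-2385 ovaries and 93.1 CPM in the vehicle ovaries, and 3 of 8 granulosa markers had 0 counts in every kidney library. Ovary vehicle replicate 3 stood apart in nuclear noncoding RNA. Malat1 had 640 CPM there, against 1354 to 1899 CPM in the other vehicle ovaries. Results that rest on that library are given with and without it.

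The promoters of the genes were examined first, because the arms are defined by the factors that bind them. Windows from 250 bases before to 50 bases after the start were taken from RefSeq (GRCm38.p6) and were found for 31 of the 35 genes. They were searched on both strands for the ER stress element, the site of ATF6 and XBP1 with NF-Y, written CCAAT, 9 unspecified bases, CCACG. It was present in the windows of 8 of the 31 genes (25.8%), against 37 of 27025 genes with a window (0.137%). All 8 belonged to the chaperone arm (8 of 15 with a window), and 0 of 8 genes of the amino acid arm had it. The matched sites are shown because they mark the genes that carry the classic element, with the fixed letters in capitals and each read on the strand that gives the CCAAT first.
Hspa5: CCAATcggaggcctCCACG
Hsp90b1: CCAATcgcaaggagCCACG
Hsp90b1: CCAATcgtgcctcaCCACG
Dnajc3: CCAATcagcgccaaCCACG
Calr: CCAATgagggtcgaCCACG
Canx: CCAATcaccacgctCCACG
Pdia6: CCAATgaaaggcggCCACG
Creld2: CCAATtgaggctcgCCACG
Syvn1: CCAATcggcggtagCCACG
Hsp90b1 had a pair of sites. The second part of the element on its own, CCACG, lay in 24 windows (77.4%) but also in 35.5% of all genes. The UPR element TGACGTGG, searched likewise, was in 0 of 31 windows and in 0.714% of all genes. The amino acid response element TGATGNAA, to which ATF4 binds with a C/EBP partner, was in 6 of 31 windows (19.4%), against 4.51% of all genes. Its holders were Atf3, Herpud1, Asns, Slc7a11, Chac1 and Trib3, that is 4 of 8 genes of the amino acid arm and 1 of 15 of the chaperone arm. These matches describe letters in a window and do not show binding. The arms were drawn up as known targets of these factors, so the shares partly follow from that choice and test nothing.

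Full windows are shown for Herpud1, the gene whose response passed the test between organs, and for Dnajc3 and Canx, the chaperone genes that passed the test in kidney. Capitals mark the ER stress element in Dnajc3 and Canx. In Herpud1 they mark the amino acid response element, read on the opposite strand, and a second form of the ER stress element (ATTGG, 1 unspecified base, CCACG), known from the human gene. That second form was searched after the windows had been seen, and 12 of 27025 genes (0.0444%) held it, with Herpud1 as the 1 member among them.
Herpud1 (chr8:94386179-94386478, GRCm38.p6, plus strand): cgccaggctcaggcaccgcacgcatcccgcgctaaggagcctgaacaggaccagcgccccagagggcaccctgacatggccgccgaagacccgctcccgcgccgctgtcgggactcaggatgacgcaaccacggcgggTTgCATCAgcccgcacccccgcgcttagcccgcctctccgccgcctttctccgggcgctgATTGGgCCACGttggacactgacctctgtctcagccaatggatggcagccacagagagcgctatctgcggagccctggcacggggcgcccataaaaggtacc
Dnajc3 (chr14:118937682-118937981, GRCm38.p6, plus strand): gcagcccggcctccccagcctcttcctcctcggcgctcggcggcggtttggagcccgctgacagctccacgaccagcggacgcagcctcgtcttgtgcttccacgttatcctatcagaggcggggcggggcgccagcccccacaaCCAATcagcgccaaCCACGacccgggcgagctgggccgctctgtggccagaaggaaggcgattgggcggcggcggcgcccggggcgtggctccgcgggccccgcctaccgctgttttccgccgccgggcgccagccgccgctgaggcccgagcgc
Canx (chr11:50325624-50325923, GRCm38.p6, minus strand): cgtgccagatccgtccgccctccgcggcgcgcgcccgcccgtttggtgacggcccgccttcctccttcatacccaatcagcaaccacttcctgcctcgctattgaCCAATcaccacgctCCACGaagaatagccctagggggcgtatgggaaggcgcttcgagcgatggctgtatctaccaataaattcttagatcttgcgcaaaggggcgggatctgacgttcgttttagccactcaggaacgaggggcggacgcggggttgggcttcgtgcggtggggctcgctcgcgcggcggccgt

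In ovary the stress genes lay mostly a little higher with PT-2385, but none passed the test. At an adjusted p of 0.05 (quasi-likelihood test of edgeR, Benjamini-Hochberg over 18125 genes), 0 of 35 were called, and 9 of all genes were (0.0497%). DESeq2 called 2 of the 35 (Dnajb9 and Herpud1) and 295 of all genes (1.63%), and limma-voom called 0 of the 35 and 3 of all genes. At an unadjusted p of 0.05, 9 of the 35 (25.7%) were higher and 0 lower. Of all genes 5.74% were higher, and 13.2% passed in either direction. Of the 35 log2 fold changes 30 were positive, with a median of 0.107, beside 49.2% positive and a median of −0.003 over all genes. In 6 genes (17.1%) every PT-2385 library lay above every vehicle library, against 3.18% of all genes, and in 0 genes the reverse held, against 3.77% of all genes. The 6 were Xbp1, Atf4, Ddit3, Dnajb9, Herpud1 and Syvn1. The 35 genes were chosen with earlier results of these data known, and they share the same libraries. Shares of the 35 beside those of all genes, here and below, are therefore a description without a test.

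**Figure D1:**
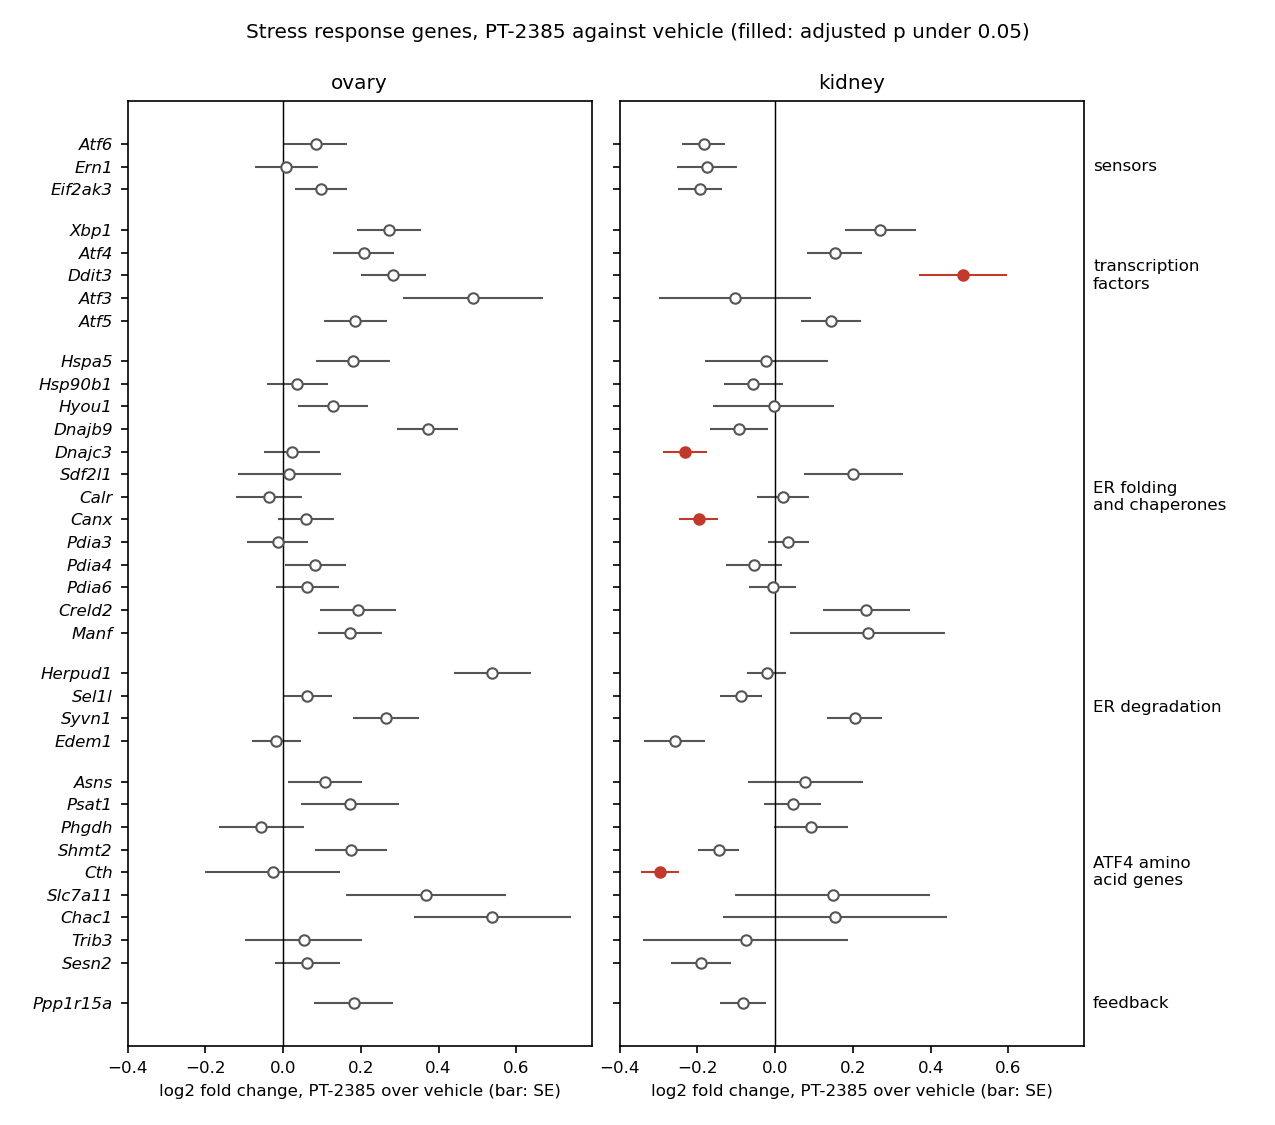
Log2 fold change of PT-2385 over vehicle (x axis) for each of the 35 genes (y axis, grouped by role) in ovary (left panel) and kidney (right panel). Points are estimates, bars are standard errors, and filled points passed an adjusted p of 0.05. The 5 transcription factors lie right of 0 in ovary, and the 3 sensors lie left of 0 in kidney.

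The 3 sensors differed little in ovary. Eif2ak3 had 44.1, 44.1, 43.0 and 45.2 CPM (TMM-scaled within the organ, as all CPM per gene here) in the PT-2385 ovaries, against 42.1, 37.9, 39.6 and 45.4 CPM in the vehicle ovaries. The groups overlapped, and its log2 fold change was 0.10 (adjusted p = 0.558, edgeR). The log2 fold changes of Atf6 and Ern1 were 0.08 and 0.01.

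The 5 transcription factors were all on the higher side in ovary, with log2 fold changes between 0.19 and 0.49 and unadjusted p under 0.05, although none passed after adjustment. Xbp1, which XBP1 and ATF6 themselves induce, had 147, 146, 164 and 171 CPM in the PT-2385 ovaries, against 139, 113, 139 and 129 CPM in the vehicle ovaries. Every PT-2385 library was above every vehicle library (log2 fold change 0.27 with SE 0.0822, edgeR adjusted p = 0.211). Atf4 had 288, 262, 289 and 257 CPM with PT-2385, against 229, 213, 255 and 252 CPM with vehicle. The gap between its groups was small, with the lowest PT-2385 library just above the highest vehicle one (log2 fold change 0.21, adjusted p = 0.296, edgeR). Ddit3, encoding the death-linked factor CHOP, had 15.5, 13.997, 13.97 and 13.6 CPM with PT-2385, against 11.3, 12.1, 12.3 and 11.0 CPM with vehicle, again without overlap (log2 fold change 0.28, adjusted p = 0.207, edgeR). For Ddit3, 20.9% of the exon bases also lie in other gene models, so part of its reads may be uncertain. Atf3, a factor of the same pathway, lay between 14.8 and 16.8 CPM in PT-2385 replicates 1 to 3 but at 8.497 CPM in PT-2385 replicate 4, against 9.25 to 10.8 CPM with vehicle (log2 fold change 0.49, adjusted p = 0.290, edgeR). Without that 1 library, singled out here by its low Atf3 value, Atf3 passed the test. In that fit 60 of 18392 genes were called (0.326%).

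Among the folding genes of the ovary, Dnajb9 (ERdj4, a co-chaperone of BiP; chr12:44252342-44257109, GRCm39) stood out. It had 74.7, 69.3, 80.4 and 86.4 CPM with PT-2385, against 66.1, 54.8, 58.9 and 60.6 CPM with vehicle. All PT-2385 libraries were above all vehicle libraries. The log2 fold change was 0.37 (SE 0.0792), or 1.29-fold, and edgeR gave an adjusted p = 0.0992. Hspa5, encoding BiP, the main ER chaperone, had 1397, 1238, 1378 and 1571 CPM with PT-2385, against 1315, 1118, 1293 and 1205 CPM with vehicle. Its groups overlapped (log2 fold change 0.18, adjusted p = 0.448, edgeR). The other 11 folding genes had log2 fold changes between −0.04 (Calr, the calcium-binding lectin chaperone calreticulin) and 0.19 (Creld2, a secreted ER stress protein). Dnajc3 (p58IPK, an inhibitor of PERK) had 193, 208, 208 and 229 CPM with PT-2385, against 218, 198, 195 and 214 CPM with vehicle. Canx, the membrane-bound lectin chaperone calnexin, had 682, 683, 718 and 750 CPM with PT-2385, against 686, 654, 676 and 704 CPM with vehicle. The libraries of both groups were interleaved in each of these genes.

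Of the 4 degradation genes, Herpud1 (chr8:95113066-95122005, GRCm39), which assembles the HRD1 ubiquitin ligase complex, had the smallest p of all 35 genes in ovary. It had 58.5, 46.1, 59.8 and 65.8 CPM with PT-2385, against 43.4, 37.1, 40.7 and 37.3 CPM with vehicle. Every PT-2385 library was higher, by 1.45-fold in the fit (log2 fold change 0.54 with SE 0.0990, edgeR adjusted p = 0.0634). Syvn1, which encodes the ligase HRD1 itself, had 128, 109, 120 and 120 CPM with PT-2385, against 108, 98.2, 84.0 and 108 CPM with vehicle (log2 fold change 0.26, adjusted p = 0.229, edgeR). Its groups came close, with PT-2385 replicate 2 just above the upper vehicle libraries. Sel1l, the partner of HRD1, and Edem1, which hands misfolded glycoproteins to the pathway, had log2 fold changes of 0.06 and −0.02.

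**Figure D2:**
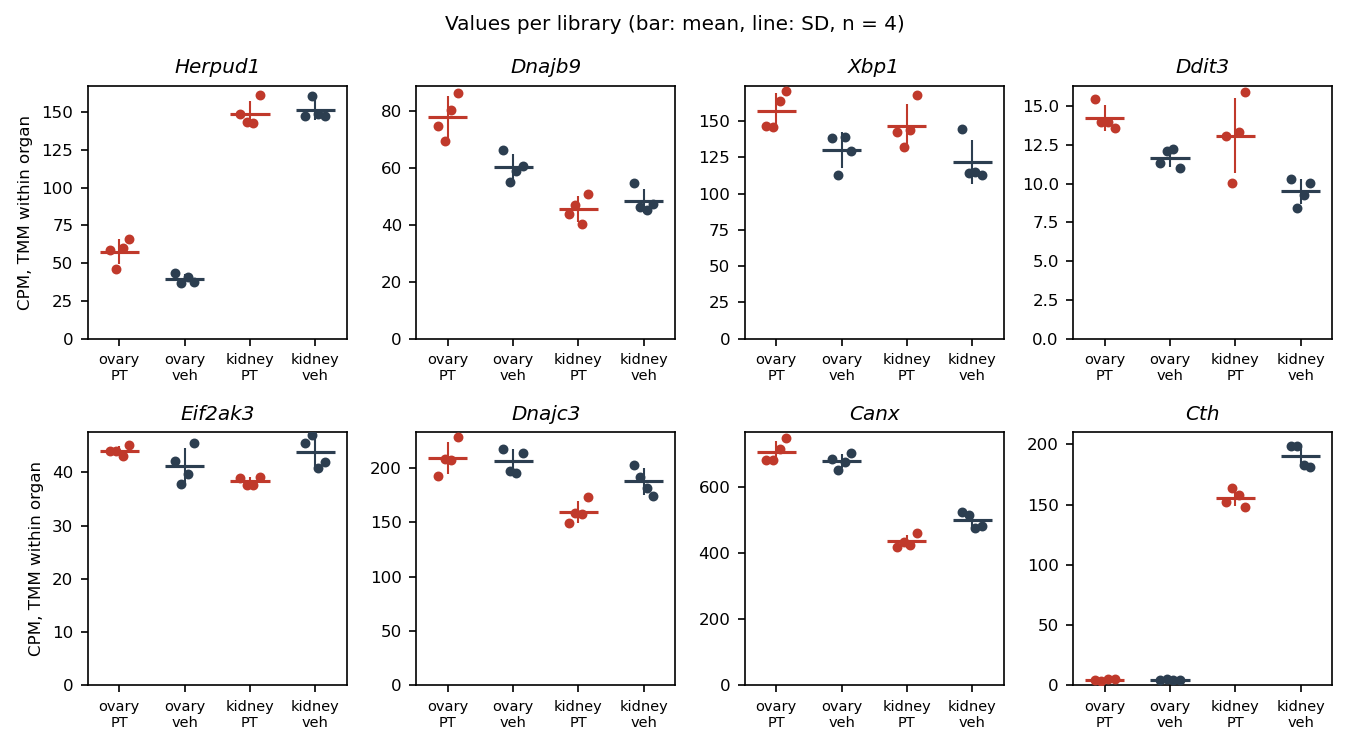
CPM in each library (y axis, TMM-scaled within each organ) of 8 genes, by organ and treatment, with PT-2385 (PT) left of vehicle (veh). Points are libraries, horizontal bars are means and vertical lines are SD (n = 4). Herpud1, Dnajb9, Xbp1 and Ddit3 separate by treatment in ovary, and Eif2ak3, Dnajc3, Canx and Cth separate in kidney. Levels are not compared between organs on this scale.

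In the amino acid arm of the ovary 7 of 9 log2 fold changes were positive, with a median of 0.107, against 14 of 17 and a median of 0.0624 in the chaperone arm. Asns, which makes asparagine, had 28.8, 33.1, 34.6 and 35.5 CPM with PT-2385, against 28.4, 29.1, 36.4 and 28.8 CPM with vehicle. Vehicle replicate 3 was the highest of the 8 libraries (log2 fold change 0.11, adjusted p = 0.656, edgeR). Chac1, which degrades glutathione, averaged 2.27 ± 0.392 CPM with PT-2385 and 1.57 ± 0.297 CPM with vehicle (SD, n = 4 each), a log2 fold change of 0.54 (adjusted p = 0.291, edgeR), at a low level. Slc7a11, the cystine importer, averaged 120 ± 23.98 CPM with PT-2385 and 92.8 ± 23.4 CPM with vehicle (SD, n = 4 each; log2 fold change 0.37, adjusted p = 0.483, edgeR). Psat1 and Phgdh, enzymes of serine synthesis, and Shmt2, the mitochondrial enzyme that takes serine to glycine, had log2 fold changes of 0.17, −0.06 and 0.17. Cth, which makes cysteine from cystathionine, was scarce in ovary, with 4.37, 3.01, 4.89 and 5.39 CPM with PT-2385 and 4.56, 5.05, 4.48 and 3.93 CPM with vehicle (log2 fold change −0.03). Trib3, a pseudokinase that restrains ATF4, and Sesn2, a leucine sensor, had log2 fold changes of 0.05 and 0.06. Ppp1r15a (GADD34), which brings a phosphatase to eIF2α, had 0.18.

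The level of an arm in a library was taken as the median over its genes of the log2 CPM less that gene's vehicle mean. In ovary the amino acid arm stood at 0.110, 0.115, 0.182 and 0.239 with PT-2385, against −0.022, −0.077, 0.173 and −0.082 with vehicle. Vehicle replicate 3 lay among the PT-2385 libraries and the other vehicle libraries lay below them. The chaperone arm stood at 0.006, 0.007, 0.090 and 0.193 with PT-2385, against 0.073, −0.074, −0.011 and 0.048 with vehicle, with overlap between the groups. Without vehicle replicate 3 the median log2 fold change of the amino acid arm was 0.203. In that fit 6 of the 35 genes passed the test (Xbp1, Atf5, Dnajb9, Herpud1, Psat1 and Shmt2), and 1090 of all 18481 genes (5.90%) did.

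**Figure D3:**
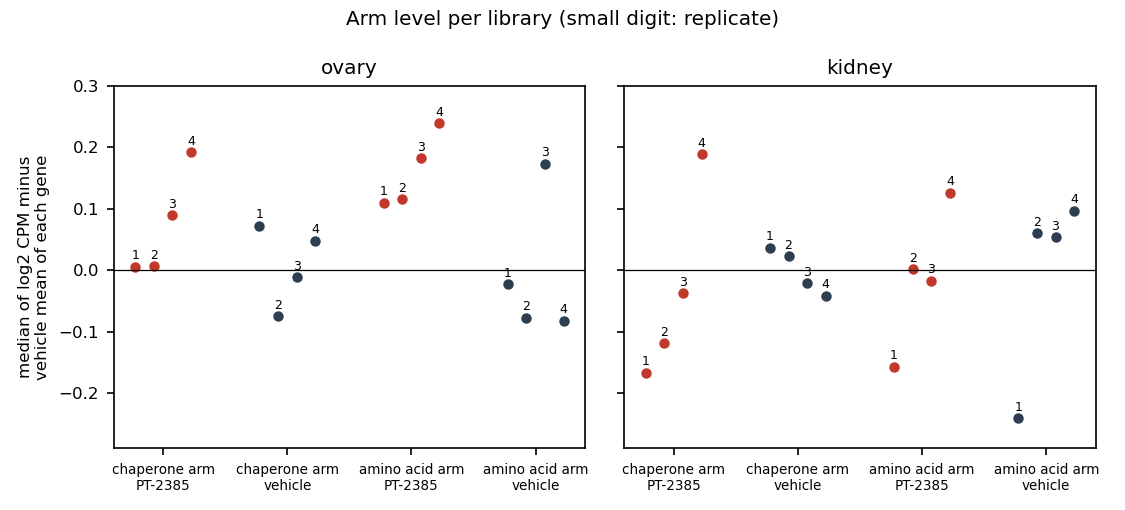
Level of each arm (y axis: median over its genes of the log2 CPM less that gene's vehicle mean) per library in ovary (left) and kidney (right), for the chaperone arm and the amino acid arm with PT-2385 left of vehicle. Small digits are replicate numbers. Vehicle replicate 3 sits at 0.173 in the amino acid arm of the ovary, and PT-2385 replicate 4 sits at 0.189 in the chaperone arm of the kidney.

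Markers of several other ovarian states and cell types leaned to one side in the same ovaries. Their levels per library, taken as for the arms, overlapped between the groups in every list below except the cumulus and ovulatory one. In these lists 0 genes passed the test, and their part in the stress gene values was not tested. All 9 cumulus and ovulatory markers had positive log2 fold changes (median 0.65), and their summed level ran from 1900 to 2554 CPM with PT-2385 and from 1334 to 2386 CPM with vehicle. Granulosa markers were positive in 7 of 8 (median 0.22), but their level in PT-2385 replicate 4 (−0.192) was below every vehicle library. On the lower side, macrophage markers were positive in 1 of 8 (median −0.13), endothelial markers in 1 of 6 (median −0.159) and erythroid markers in 0 of 4 (median −0.183). The erythroid level was 0.889 in vehicle replicate 3, against −0.105, −0.228 and −0.488 in the other vehicle ovaries, and ran from −0.294 to 0.242 with PT-2385. Oocyte markers were mixed, with 3 of 5 positive (median 0.0116). Luteal and theca markers were positive in 2 of 7 (median −0.117), and their summed level ran from 9752 to 10898 CPM with PT-2385 and from 9829 to 17028 CPM with vehicle. Of 12 genes of handling and heat shock stress 8 were positive, with a median of 0.0586.

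Among the 35 genes, holders of an amino acid response element had a higher median in ovary than holders of an ER stress element. This is a description without a test. Over all 31 of the genes with a window the ovary median was 0.107, with 27 positive. The 6 holders of the amino acid response element had log2 fold changes between 0.05 and 0.54 with a median of 0.428, and 0 were called. Herpud1, the highest of them, also holds the second form of the ER stress element, which is not counted here. Asns and Trib3 had 0.11 and 0.05, and Chac1 was at a low level. The 8 holders of the ER stress element had log2 fold changes between −0.04 and 0.26 with a median of 0.0606, and 7 were positive. Among other tested genes, 155 of 355 holders of the amino acid response element were positive (median −0.0197), and 5 of 14 holders of the ER stress element were (median −0.0383). In kidney the medians of the same 6 and 8 genes were 0.0280 and −0.0147.

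In kidney 4 of the 35 genes (11.4%) passed the test, where 5.53% of all 17763 genes did. Of these, Ddit3 was higher with PT-2385 (1.83% of all genes were called higher), and Dnajc3, Canx and Cth were lower (3.70% of all genes were called lower). The sign was mixed over the whole list, with 15 of 35 log2 fold changes positive and a median of −0.0218, beside 51.5% positive and a median of 0.007 over all genes. In 5 genes (14.3%) every PT-2385 library lay below every vehicle library, against 7.89% of all genes, and in 0 genes above, against 5.37% of all genes. The 5 were Atf6, Eif2ak3, Dnajc3, Canx and Cth.

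All 3 sensors were on the lower side in kidney and none passed the test. Eif2ak3 had 39.0, 37.7, 37.6 and 39.2 CPM with PT-2385, against 45.5, 47.0, 40.8 and 41.9 CPM with vehicle. The PT-2385 libraries were close to each other and all below the vehicle libraries (log2 fold change −0.19 with SE 0.0563, edgeR adjusted p = 0.0551). For Eif2ak3, 10% of the exon bases also lie in a gene model on the opposite strand. Atf6 averaged 59.3 ± 0.605 CPM with PT-2385 and 67.4 ± 5.45 CPM with vehicle (SD, n = 4 each; log2 fold change −0.18, adjusted p = 0.0653, edgeR), and Ern1 had a log2 fold change of −0.18 (adjusted p = 0.181, edgeR).

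Of the 5 transcription factors 4 had positive log2 fold changes in kidney, and 1 rose. Ddit3 (chr10:127126643-127132157, GRCm39) rose 1.40-fold, with 13.1, 10.05, 13.3 and 15.9 CPM with PT-2385, against 10.3, 8.45, 9.27 and 10.01 CPM with vehicle (log2 fold change 0.48 with SE 0.113, edgeR adjusted p = 0.0232). PT-2385 replicate 2 lay within the vehicle range, so the groups overlapped. Xbp1 had 142, 132, 144 and 168 CPM with PT-2385, against 145, 114, 115 and 113 CPM with vehicle. Vehicle replicate 1 lay among the PT-2385 libraries (log2 fold change 0.27 with SE 0.0918, edgeR adjusted p = 0.110). Atf4 had 121, 128, 120 and 133 CPM with PT-2385, against 123, 94.6, 120 and 114 CPM with vehicle, with overlap (log2 fold change 0.15, adjusted p = 0.208, edgeR). Atf5 and Atf3 had log2 fold changes of 0.14 and −0.10.

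Of the 13 folding genes in kidney 2 fell and 0 rose. Dnajc3 (chr14:119175388-119219109, GRCm39) had 149, 159, 158 and 173 CPM with PT-2385, against 203, 192, 182 and 175 CPM with vehicle. The highest PT-2385 library lay just under the lowest vehicle library (log2 fold change −0.23 with SE 0.0569, edgeR adjusted p = 0.0280). Canx (chr11:50184788-50216500, GRCm39) had 421, 435, 425 and 463 CPM with PT-2385, against 526, 515, 477 and 481 CPM with vehicle, without overlap (log2 fold change −0.20 with SE 0.0499, edgeR adjusted p = 0.0323). The fold of Canx was 0.873.

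In several other folding genes of the kidney 1 library stood apart. Hspa5 had 425, 442, 474 and 695 CPM with PT-2385, against 548, 517, 505 and 499 CPM with vehicle. PT-2385 replicate 4 was above every vehicle library and the other PT-2385 libraries were below them, so the log2 fold change of −0.02 (SE 0.159) joins opposite values. Without PT-2385 replicate 4 the log2 fold change of Hspa5 was −0.21. Manf, a secreted neurotrophic ER protein, had 46.4, 40.5, 45.1 and 74.6 CPM with PT-2385, against 43.9, 39.8, 46.7 and 45.9 CPM with vehicle, and Hyou1, a large chaperone of the HSP70 family, had 105, 103, 123 and 167 CPM with PT-2385, against 132, 122, 120 and 127 CPM with vehicle. In both genes the same PT-2385 library was the highest of the 8. Dnajb9 had 43.6, 47.0, 40.3 and 50.9 CPM with PT-2385, against 54.6, 46.2, 45.3 and 47.2 CPM with vehicle (log2 fold change −0.09, adjusted p = 0.498, edgeR).

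The degradation genes of the kidney did not pass the test. Herpud1 had 148, 144, 143 and 161 CPM with PT-2385, against 148, 161, 149 and 148 CPM with vehicle, a log2 fold change of −0.02 with a 95% interval from −0.13 to 0.09 (edgeR). Syvn1 had 75.6, 72.8, 79.2 and 93.0 CPM with PT-2385, against 75.6, 65.0, 71.4 and 66.9 CPM with vehicle (log2 fold change 0.20, adjusted p = 0.100, edgeR). Both groups of Syvn1 reached 75.6 CPM. Edem1 averaged 59.4 ± 2.63 CPM with PT-2385 and 71.0 ± 9.53 CPM with vehicle (SD, n = 4 each; log2 fold change −0.26, adjusted p = 0.0688, edgeR), and Sel1l had a log2 fold change of −0.09.

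In the amino acid arm of the kidney 1 of 9 genes fell and 0 rose. Cth (chr3:157599885-157630714, GRCm39) had 152, 164, 158 and 148 CPM with PT-2385, against 199, 199, 183 and 182 CPM with vehicle. The groups did not overlap, and the log2 fold change was −0.30 (SE 0.0497), a fold of 0.814 with an edgeR adjusted p = 0.00486. Shmt2 averaged 201 ± 8.53 CPM with PT-2385 and 223 ± 14.4 CPM with vehicle (SD, n = 4 each; log2 fold change −0.15, adjusted p = 0.111, edgeR), and Sesn2 had a log2 fold change of −0.19 (adjusted p = 0.146, edgeR). Asns had 4.67, 4.95, 4.08 and 3.52 CPM with PT-2385, against 3.16, 4.62, 3.76 and 4.48 CPM with vehicle, with full overlap. Slc7a11, Chac1 and Trib3 were under 1.2 CPM in each of the 8 kidney libraries.

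The arm medians in kidney were −0.0218 for the chaperone arm (6 of 17 positive) and 0.0446 for the amino acid arm (5 of 9 positive). Both signs depended on single libraries: with 1 library left out the chaperone median lay between −0.137 and 0.0434 (positive without PT-2385 replicate 1 or 2), and the amino acid median between −0.0702 and 0.135 (negative without vehicle replicate 1 or PT-2385 replicate 3). Per library the chaperone arm stood at −0.167, −0.119, −0.038 and 0.189 with PT-2385, against 0.037, 0.023, −0.021 and −0.042 with vehicle, and PT-2385 replicate 4 was the highest of all. Without that library the median log2 fold change of the chaperone arm was −0.137. The amino acid arm stood at −0.157, 0.002, −0.017 and 0.126 with PT-2385, against −0.241, 0.060, 0.054 and 0.097 with vehicle, with overlap.

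Of the 4 kidney calls, only Cth held when any single library was left out. Ddit3 lost its call without vehicle replicate 2 (adjusted p = 0.0828, edgeR), and also without replicates 1, 3 or 4 of PT-2385 (0.0503, 0.0789 and 0.0887). Dnajc3 and Canx lost theirs without vehicle replicate 2 or without replicates 1, 2 or 3 of PT-2385, with adjusted p between 0.0502 and 0.121 (edgeR), and Canx also without vehicle replicate 1 (0.0540).

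Exon length moved with the response in kidney, and its part in these calls was measured in 1 way. Over all 17763 genes Spearman's rho between log2 fold change and exon length was −0.184, and over the 35 genes −0.492, as a description of genes that share libraries. Of the 9 members of 3959 bases or more 1 was positive (median −0.184), and of the 10 members of 2113 bases or less 7 were positive (median 0.149). With a smooth trend on exon length removed from each library, Ddit3 (890 bases) had a log2 fold change of 0.40 (adjusted p = 0.0508, edgeR). Dnajc3, Canx and Cth kept their calls and Shmt2 gained one. In that fit 4 of the 35 genes were called, and 1218 of all 17763 genes (6.86%) were. In ovary the values of rho were −0.0522 over all genes and −0.201 over the 35.

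**Figure D4:**
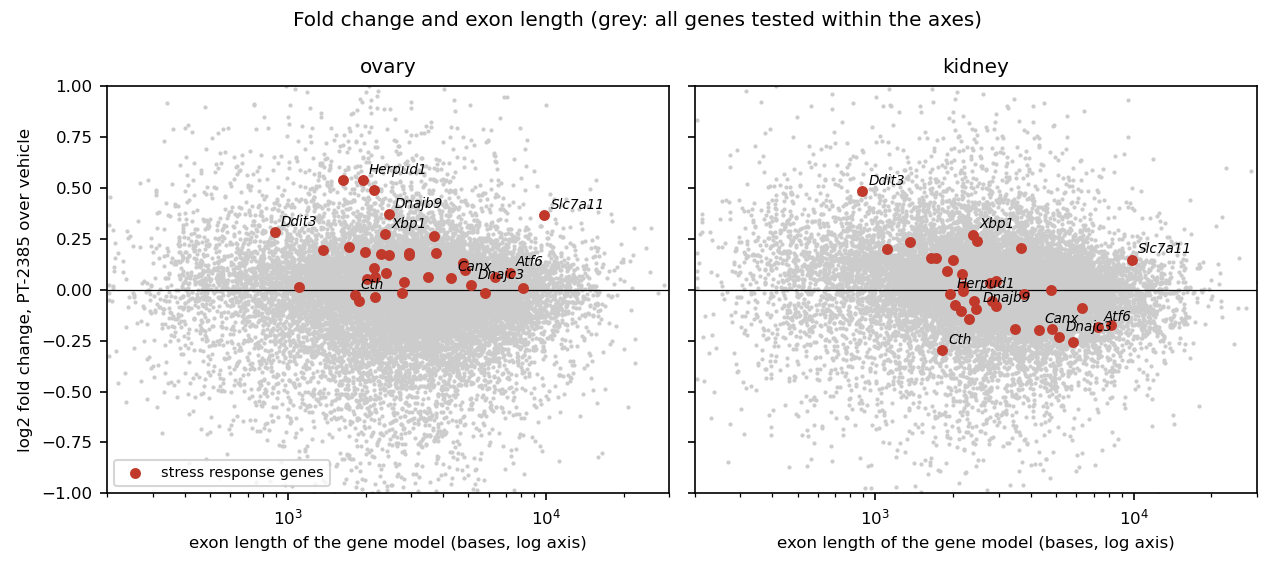
Log2 fold change of PT-2385 over vehicle (y axis) against exon length of the gene model in bases (x axis, log scale) in ovary (left) and kidney (right). Grey points are all genes tested that lie within the axes, and red points are the 35 genes. In kidney the members of 3959 bases or more lie below 0 except for 1, and Ddit3, the shortest, lies highest.

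A few markers of kidney cell types and of handling also passed the test, and their part in the stress gene values was not tested. Of 7 proximal tubule markers 1 had a positive log2 fold change and 2 fell (Aqp1, a water channel, −0.37 and Cubn, a protein uptake receptor, −0.44). The level of the proximal tubule list per library, taken as for the arms, did not overlap between the groups. It was −0.181, −0.178, −0.152 and −0.295 with PT-2385, against −0.005, −0.001, 0.104 and 0.015 with vehicle. The levels of the podocyte, macrophage and handling lists overlapped. All 4 podocyte markers were positive, with 1 called higher (Wt1), and 1 of 8 macrophage markers was positive, with 1 called lower (Csf1r). Among 12 genes of handling and heat shock stress 1 rose, Dnajb1, a cytosolic heat shock co-chaperone (log2 fold change 0.26, adjusted p = 0.0421, edgeR). Of these 5 calls Aqp1 held when any single library was left out. Cubn lost its call without vehicle replicate 2 or PT-2385 replicate 1, 3 or 4, Wt1 without vehicle replicate 2 or PT-2385 replicate 3 or 4, and Csf1r without vehicle replicate 2 or PT-2385 replicate 2 or 4. Dnajb1 lost its call without any 1 library other than vehicle replicate 1.

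Nuclear noncoding RNAs, read as a sign of RNA quality, separated the kidney groups. The median level of 5 such RNAs (Malat1, Neat1, Xist, Kcnq1ot1 and Meg3), taken as for the arms, was 0.287, 0.169, 0.201 and 0.0737 in the PT-2385 kidneys, against −0.0945, 0.0143, 0.0072 and 0.0557 in the vehicle kidneys. Their summed level ran from 3487 to 3634 CPM with PT-2385 and from 3080 to 3359 CPM with vehicle. Of the 5 log2 fold changes 4 were positive (median 0.127) and 0 passed the test, and the part of this difference in the stress gene values was not tested.

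The response of 1 gene passed the test of a difference between organs. An interaction term over all 16 libraries tested how far the ovary response exceeded the kidney response, and 1 of 35 members (2.86%) passed, where 0.19% of 19977 genes did. The gene was Herpud1, whose response was 0.58 log2 units greater in ovary (SE 0.119, adjusted p = 0.0456, edgeR). Dnajb9 was next, with a difference of 0.48 (SE 0.117, adjusted p = 0.0877, edgeR), and Eif2ak3 had 0.31 (adjusted p = 0.167, edgeR). In all, 28 of 35 differences were positive (median 0.157), beside 48.9% positive and a median of −0.006 over all 19977 genes. The difference for Xbp1, which had log2 fold changes of 0.27 in each organ, was 0.02 (SE 0.132). The Herpud1 call was lost when any kidney library was left out (adjusted p between 0.0597 and 0.131, edgeR). It was also lost without ovary vehicle replicate 1, 2 or 4 or ovary PT-2385 replicate 1, 3 or 4 (adjusted p between 0.0595 and 0.173), and it was kept without ovary vehicle replicate 3 or ovary PT-2385 replicate 2. RNA was isolated differently in the organs, with a column kit for ovary and Trizol for kidney. The labels do not say whether ovary and kidney libraries come from the same animals, and the test treated all 16 libraries as independent.

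Levels were compared between genes per length, as transcripts per 1000000 transcripts of a library (TPM). Calr was the highest in all 4 groups, at 1413 ± 122 TPM in the PT-2385 ovaries and 1492 ± 68.4 TPM in the vehicle ovaries, and at 822 ± 92.3 TPM in the PT-2385 kidneys and 821 ± 20.3 TPM in the vehicle kidneys (SD, n = 4 each). Hspa5, Pdia3 and Hsp90b1 followed in each group, with overlapping ranges among them in ovary. Chac1, Trib3 and Cth were the lowest in ovary, at 3.59 ± 0.625, 4.97 ± 0.852 and 6.29 ± 1.46 TPM with PT-2385 and at 2.56 ± 0.523, 4.94 ± 0.354 and 6.62 ± 0.701 TPM with vehicle (SD, n = 4). In kidney Cth was among the 7 highest, at 183 ± 8.61 TPM with PT-2385 and 228 ± 18.5 TPM with vehicle, and Slc7a11 was the lowest, at 0.185 ± 0.0283 TPM with PT-2385 and 0.164 ± 0.0371 TPM with vehicle (SD, n = 4 each). Of 34 pairs of neighbours in the order, 23 overlapped in their range over libraries in each ovary group and 22 in each kidney group.

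**Figure D5:**
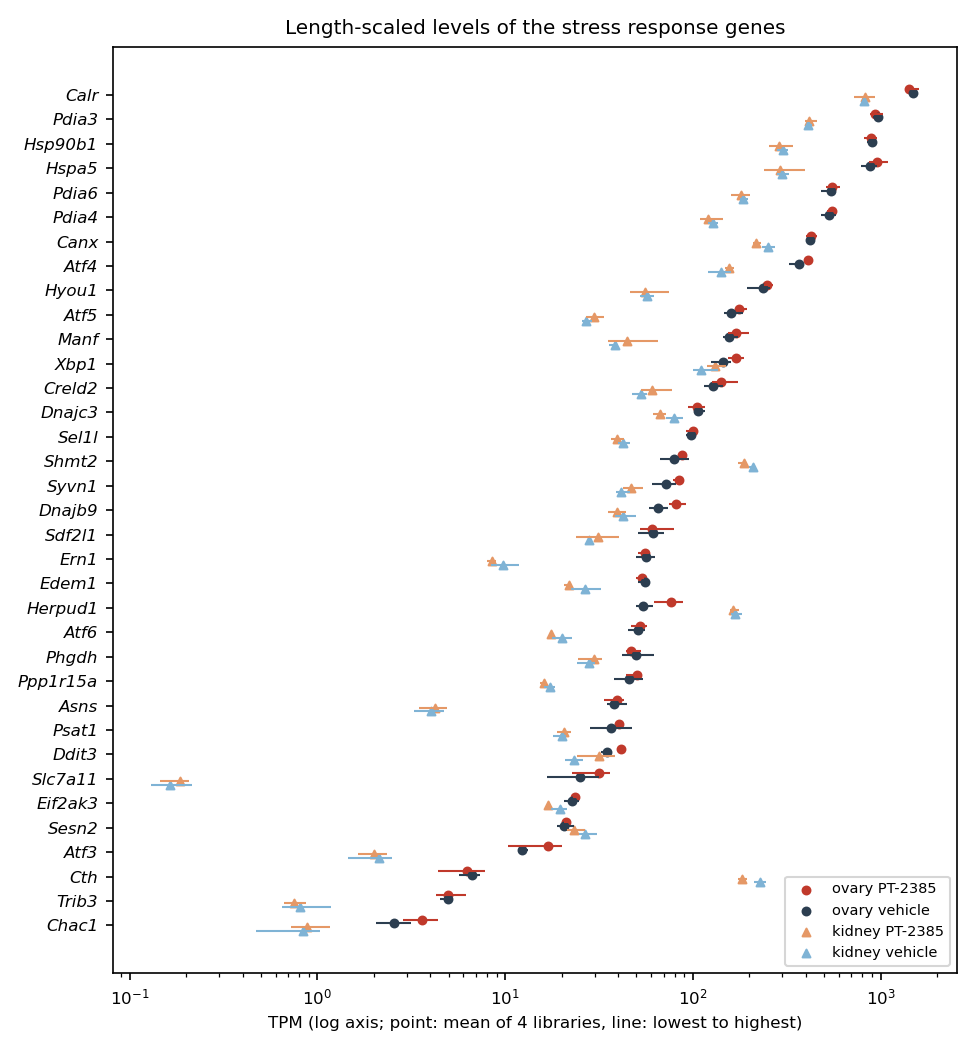
Levels in TPM (x axis, log scale) of the 35 genes (y axis, in order of the vehicle ovaries). Points are means of 4 libraries and lines run from the lowest to the highest library, for PT-2385 and vehicle in ovary (circles) and kidney (triangles). Cth stands near the bottom in ovary and among the highest genes in kidney, and Slc7a11 is the lowest in kidney.

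Other genes of the same pathways were read from 3 further lists. Of 34 further ATF6 and XBP1 genes 24 had positive log2 fold changes in ovary (median 0.0389) and 12 in kidney (median −0.0839), with 0 called in either organ; 7 (20.6%) and 14 (41.2%) had an unadjusted p under 0.05, where 13.2% of all genes in ovary and 23.1% in kidney did. In ovary Txndc11, a thioredoxin-like ER protein, had a log2 fold change of 0.19 and Sil1, the nucleotide exchange factor of BiP, −0.25 (adjusted p = 0.207 and 0.251, edgeR). In kidney P4hb, a disulfide isomerase, had −0.15 and Ero1l, the oxidase that works with it, −0.21 (adjusted p = 0.0502 and 0.0571, edgeR). The level of these 34 genes per kidney library, taken as for the arms, did not overlap between the groups. It was −0.124, −0.0739, −0.0873 and −0.0361 with PT-2385, against 0.0226, −0.0078, −0.0124 and −0.0125 with vehicle. The ovary levels of the same list overlapped.

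Of 37 further ATF4 genes tested 30 were positive in ovary (median 0.0960) with 0 called and 5 (13.5%) at an unadjusted p under 0.05. In kidney 16 were positive (median −0.0154) and 2 (5.41%) were called. Both shares were close to those over all genes (13.2% and 5.53%). In ovary Slc7a1, a carrier of cationic amino acids, had a log2 fold change of 0.41 and Stc2, a secreted glycoprotein, 0.32 (adjusted p = 0.158 and 0.206, edgeR). In kidney the 2 called genes both fell. Slc1a4, a neutral amino acid carrier, had 31.7, 33.8, 28.7 and 27.4 CPM with PT-2385, against 46.0, 39.8, 36.3 and 43.0 CPM with vehicle (log2 fold change −0.45, adjusted p = 0.00513, edgeR). Cbs, which makes the substrate of the Cth enzyme, had a log2 fold change of −0.25 (adjusted p = 0.0235, edgeR). Slc1a4 held its call when any single library was left out, and Cbs lost it without PT-2385 replicate 1, 3 or 4 (adjusted p = 0.0553, 0.0997 and 0.0561, edgeR).

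Of 6 genes for other eIF2α kinases and eIF2 factors, Eif2ak2, the double-stranded RNA kinase PKR, fell in ovary. It had 27.5, 30.0, 26.4 and 33.96 CPM with PT-2385, against 50.8, 44.5, 53.3 and 56.8 CPM with vehicle (log2 fold change −0.80, adjusted p = 0.0223, edgeR). The groups did not overlap. The call was lost without vehicle replicate 1 or 4 or without PT-2385 replicate 1, 2 or 3 (adjusted p between 0.0606 and 0.126, edgeR). In kidney its log2 fold change was −0.25 (adjusted p = 0.0948, edgeR) and that of Eif2b5, a subunit of the eIF2 exchange factor, was −0.14 (adjusted p = 0.0971, edgeR). The kinase of amino acid shortage was among the 6 genes and passed in neither organ.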

How the data were processed

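RNA was measured in 16 libraries, 4 per group. The deposited values are raw counts of read pairs per gene, made by the authors, per the file headers, with featureCounts 2.0.6 over exons of GENCODE vM27 (basic). The recorded command has no strand option. Per the submitters' processing notes, FastQC and STAR (GRCm39) were used, in versions not given in the sources used here. Symbols matched 52083 of 55359 identifiers (94.1%).

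From the counts, each organ was tested with edgeR 4.0.16 (R 4.3.3; quasi-likelihood, robust, TMM scaling, filterByExpr with count 10 and total 15), and the interaction over all 16 libraries. Benjamini-Hochberg adjusted p-values over all genes tested were called under 0.05. Log2 CPM used a prior count of 2. DESeq2 1.42.0, limma-voom (limma 3.58.1), DESeq2 size factors, no filter, 1 CPM in 4 libraries, a replicate block, omission of each library in turn and 1 fit of all 16 libraries were the alternatives. The removal of an exon length trend (span 0.3) and the interaction without the 2 libraries whose file names deviate (ovary vehicle replicate 3 and kidney PT-2385 replicate 3) were added after seeing the data. The tests were also run on simulated counts, drawn independently for each gene and library. Such counts hold no shift shared by many genes of a library, so they cannot show how the tests handle one. Replicates differed by more than counting noise, so none was counted as a repeat of another. Figures used Python 3.11.15 and matplotlib 3.10.9.

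Members and lists were chosen with earlier results of these data known. Values in every library are given for genes called in either organ or in the interaction, for the 5 genes with the smallest p in each organ, and for Hspa5, Xbp1, Atf4, Ddit3, Asns and Herpud1. From each further pathway list, called genes are named, or otherwise the 2 with the smallest p. A second gene model with the symbol Ddit3 has no counts and was not used.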

Additional observations from a re-analysis of the deposited data

Results flagged for a closer look

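In 48 groups of 4 libraries tested for a library far from the others, 3 were found, where chance finds about 1 in 20. Asns reached 36.4 CPM in ovary vehicle replicate 3, while the other vehicle ovaries held 28.4 to 29.1 CPM. Xbp1 reached 145 CPM in kidney vehicle replicate 1, against 113 to 115 CPM in the other vehicle kidneys. Herpud1 reached 161 CPM in kidney vehicle replicate 2, against 148 to 149 CPM in the other vehicle kidneys.

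The response of Herpud1 differed between the organs by 0.58 log2 units (ovary minus kidney) in the interaction over all 16 libraries (adjusted p = 0.0456, edgeR). This call was lost in 16 of 24 alternative settings, with an adjusted p of up to 0.173. The difference stayed positive in all 24. RNA isolation differed between the organs.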

How the results depend on the processing

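The count of ovary genes called was 295 (1.63%) with DESeq2, 3 (0.0166%) with limma-voom, 330 (0.914%) with no filter and 395 (2.18%) with a replicate block. It was 325 (1.63%) in the fit of all 16 libraries and between 0 and 1090 (5.90%) with single libraries left out. The corresponding counts of ovary stress genes were 2 with DESeq2, no filter, the block and the fit of all 16 libraries (Dnajb9 and Herpud1 each time), 0 with limma-voom and 0 to 6 with a library left out. The median of the amino acid arm in ovary lay between 0.0689 and 0.203 with a library left out. In kidney 1282 genes (7.22%) were called with DESeq2 and 1761 (5.21%) with no filter. The fit of all 16 libraries called 286 (1.43%), and 240 (1.33%) to 1370 (7.60%) were called with a library left out. Kidney stress genes called were 7 with DESeq2, 10 with no filter, 1 in the fit of all 16 libraries (Ddit3; Dnajc3, Canx and Cth had adjusted p of 0.0731, 0.0931 and 0.0651, edgeR) and 1 to 6 with a library left out. The kidney chaperone median lay between −0.137 and 0.0434 with a library left out. Interaction calls were 20 genes (0.100%) and 0 members with DESeq2 size factors (Herpud1 adjusted p = 0.0573, edgeR). They were 240 (1.20%) and 3 with DESeq2, 167 (0.432%) and 2 with no filter, and 263 (1.32%) and 2 with the replicate block. Without the 2 libraries with deviating file names they were 378 (1.87%) and 2. Limma-voom called 0 members (Herpud1 adjusted p = 0.0616), and single libraries left out gave 0 to 813 genes (up to 4.00%) and 0 to 4 members. Where 1 library decided these, the cause was not tested. Over all 35 genes, signs turned in 0 to 4 genes in ovary, in 1 to 6 in kidney and in 0 to 5 in the interaction with a library left out, in kidney Hyou1 with the exon length trend removed, and in the Phgdh interaction without the 2 libraries with deviating file names. No gene whose sign turned was called in either fit. Among the 12 genes given by library, the log2 values lay with a library left out between −0.15 and 0.12 for ovary Cth, −0.0284 and 0.0615 for ovary Dnajc3, −0.21 and 0.0549 for kidney Hspa5, −0.0238 and 0.16 for kidney Asns, −0.0617 and 0.00899 for kidney Herpud1, −0.0722 and 0.0964 for the Xbp1 interaction, and −0.0339 and 0.15 for the Asns interaction. Replicate numbers were not used as pairs in the main fits. In their deviations from the group mean, same-numbered PT-2385 and vehicle libraries correlated between −0.172 and 0.236 in ovary. In kidney they correlated between −0.064 and 0.0522. In both organs PT-2385 replicates 2 and 3 correlated best with the vehicle library of their own number, and replicates 1 and 4 did not. Whether the numbers pair the libraries was therefore not settled, and ovary was not compared with kidney in this way.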
